A study of Saccharomyces cerevisiae SK1 with 6 samples.

Results

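The genes described here are 10 middle sporulation genes of budding yeast, SPS1, SMK1, CLB1, SPO21, SSP1, SPR3, SPR28, GAS4, DIT1 and SPS4. They were chosen by name because their transcription in meiosis is known to need the factor Ndt80. No measured value is part of that rule, but earlier results of these data were known when the genes were chosen. All 10 names were found among the 7071 features listed in each count file. The counts come from polyA(+) RNA of SK1 cells harvested 5 h after transfer to SPO, an acetate medium in which yeast cells enter meiosis, and read by direct RNA sequencing on nanopores. The strain called wild type (SAy841) carries a deletion of NDT80 (*ndt80∆*), and the strain called *ime4∆* (SAy966) carries deletions of both NDT80 and IME4 (*ndt80∆ ime4∆*), IME4 encoding the m6A methyltransferase of yeast mRNA. Each strain is represented by 3 independent cultures, each sequenced on its own flow cell. No library of a strain with an intact NDT80 was analysed here, so the levels below are those of 2 strains that both lack the activator, and the effect of the deletion of NDT80 itself cannot be measured.

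Sporulation runs through waves of transcription, in which early genes serve recombination and synapsis and middle genes serve the meiotic divisions and the building of spores. Ndt80 opens the middle wave by binding the middle sporulation element, a short sequence upstream of its targets that the repressor Sum1 also recognizes before and outside the middle wave. Cells without NDT80 enter meiosis, stop in pachytene and do not form spores, which is why they are used to hold cultures at 1 stage.

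The sequences that tie these genes to Ndt80 were looked up first, in the 250 bases upstream of each coding start in R64, the assembly of the reference strain S288C, since no SK1 sequence was used here. Searched on both strands, the 7-base forms of the element (the form CACAAAA, its variant CACAAAT, the form CGCAAAA with another second base and its variant CGCAAAT) were found in 8 of the 10 genes, against 1025 of 5987 promoters of all genes (17.1%). The longer 9-base form, a G and any base followed by a 7-base form, was found in 7 of the 10 genes and in 272 of the 5987 promoters (4.54%). Each 9-base match contains a 7-base match. A match is only a match of letters and not a measurement of binding. The matches are shown 5′ to 3′ on the strand that carries the element, with 11 bases before and 11 bases after the 7-base form, and with the matched letters in capitals.
SMK1, chrXVI:666189-666217, minus strand: tgttcaagtGTCACAAATtagtggcgccg
CLB1, chrVII:703525-703553, plus strand: gctgtttagatCACAAAAgcgtaattaag
SPO21, chrXV:145207-145235, plus strand: ttttttaatGTCACAAAAagaaaaattaa
SSP1, chrVIII:472638-472666, plus strand: caaacaggcGACACAAAAtcatgaagtca
SPR3, chrVII:607529-607557, minus strand: aaattcaatGACGCAAAAggaattttagg
SPR28, upstream match, chrIV:905255-905283, plus strand: ctaaaggcaacCACAAATtgtcttattat
SPR28, downstream match, chrIV:905133-905161, plus strand: tatgggaatGACACAAAAtgtagacgcat
GAS4, chrXV:71180-71208, plus strand: tgaggtagcGGCACAAAAaaacgacacat
SPS4, chrXV:903047-903075, minus strand: ttgacgcgcGCCACAAAAacgtatcattg

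The 7-base form lay between 17 bases (SPR3) and 214 bases (the upstream match of SPR28) from the coding start, and 6 genes had a match between 74 and 110 bases from it, namely SMK1, SSP1, SPR28 (its downstream match), CLB1, GAS4 and SPO21. The 9 matches read on the same strand as the gene in CLB1, SPO21, SSP1, GAS4 and SPS4 and on the opposite strand in SMK1, SPR3 and SPR28. The CLB1 match and the upstream match of SPR28 had the 7-base form only. SPS1 and DIT1 had no match in the 250 bases, and SPS1 had 1 when the first 50 bases of the coding sequence were added, which brought the count to 9 of 10 genes against 19.6% of all promoters. A wider list of 39 other middle sporulation genes held the 7-base form in 27 promoters (69.2%), and a list of 25 early meiotic genes held it in 2 (8%).

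**Figure D1:**
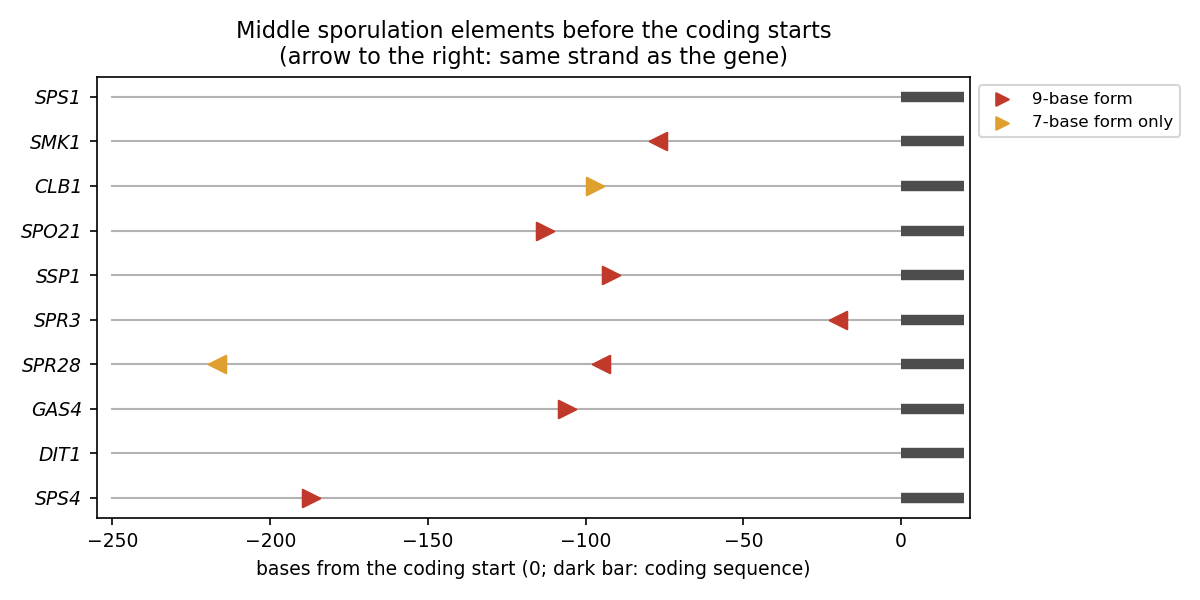
Places of the middle sporulation element in the 250 bases upstream of the coding start of the 10 genes in the R64 assembly. The x axis gives bases from the coding start, arrows point along the strand that carries the element, and red marks the 9-base form, which 7 of the 10 genes carry.

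The libraries held 177675 to 372270 counts on features. At these depths 3 counts corresponded to 8.43 to 16.8 CPM (counts per library total, corrected by TMM factors from edgeR), and a gene with 0 counts in a library could have a level up to that limit. No pair of libraries held identical values. The feature names could not be taken at face value. The deleted NDT80 was listed with 17, 1 and 4 counts in wild type and 13, 9 and 15 in *ime4∆*, although no strain carries the gene. IME4 was listed with 0, 1 and 1 counts in the strain that carries it and 0, 0 and 1 in the strain that does not, so its counts did not separate the strains (exact permutation test, two-sided, p = 0.4). The list of ribosomal protein genes, among the most abundant mRNAs of growing yeast, held 138 features whose symbols start with RPL, RPS or RPP and a digit. The symbol alone decided, so a gene of another kind with such a symbol would be in the list. The 138 had a median percentile of 42.8 among all features in wild type, and 21 of them had 0 counts in every library. Counts also grew with the length of the named gene, from a median of 1.40 CPM for coding features under 500 bases to 56.2 CPM for those of 1000 to 2000 bases and 226 CPM for those over 3000 bases. All 10 genes belong to the class of 1000 to 2000 bases, with 2266 features, and levels are therefore given against that class too. Only 18 of the 138 ribosomal protein genes belong to it, with a median percentile of 51.6 within the class over all libraries. The cells were also harvested in SPO and not in growth medium. The rank of the ribosomal protein genes is therefore a weak check of the names. A second list held 14 genes chosen as abundant, 9 of them in the class. Their median percentile over all libraries was 62.3 among all features, from 18.7 (CDC19) to 90.9 (PMA1), and 52.8 for those in the class. CDC19 had 1, 0 and 0 counts in wild type and 0 in all 3 *ime4∆* libraries. PMA1 had 84, 57 and 98 and then 109, 86 and 135. The limit of the medium applies to this list too. Every value below is the value of a feature of that name.

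Counts were present for every one of the 10 genes. Of the 10, 8 had at least 1 count in every library, against 57.2% of all features and 71.0% of the length class. At least 10 counts in every library were found for 5 of them (CLB1, SPR3, SPR28, GAS4 and DIT1), against 36.1% of all features and 45.4% of the class. SMK1 and SSP1 stayed under 3 counts in every library, as did 34.2% of all features and 18.5% of the class. The 8 genes with at least 1 count in every library passed the filter on low counts that precedes the test of the strains. So did 45.7% of all features and 57.2% of the class.

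The 2 protein kinases on the list act late, on the spore wall and the closing of the prospore membrane, the double membrane that wraps each nucleus. SPS1 (YDR523C, chromosome IV), a kinase of the Ste20 family, had 9, 8 and 11 counts in the wild-type libraries and 5, 8 and 16 in *ime4∆*. On the CPM scale this was 36.0 ± 9.50 (SD, n = 3) and 36.3 ± 12.5 (SD, n = 3), and the libraries of the strains overlapped. SMK1 (YPR054W, chromosome XVI), a MAP kinase made only in meiosis, had 2, 0 and 2 counts in wild type and 0 in all 3 *ime4∆* libraries. All 6 SMK1 values lay under the limit of 3 counts, so a difference between the strains was not detectable at this depth, and the exact permutation test gave p = 0.4.

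CLB1 (YGR108W, chromosome VII) encodes a B-type cyclin that drives Cdc28 in the meiotic divisions and in mitosis, so that its transcription is not limited to sporulation. It was listed with 274, 102 and 144 counts in wild type and 120, 64 and 104 in *ime4∆*. Wild type stood at 617 ± 157 CPM (SD, n = 3) and *ime4∆* at 386 ± 126 CPM (SD, n = 3), with wild-type replicate 1 the highest at 791 CPM and the *ime4∆* replicate 1 at 529 CPM above wild-type replicate 3 at 487 CPM.

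SPO21 (YOL091W, chromosome XV) and SSP1 (YHR184W, chromosome VIII) serve the prospore membrane, Spo21 as a part of the outer plaque of the spindle pole body from which the membrane grows and Ssp1 in the coat of its leading edge. SPO21 had 25, 20 and 23 counts in wild type and 16, 5 and 10 in *ime4∆*, or 87.4 ± 21.6 and 41.6 ± 25.1 CPM (SD, n = 3 each). The strains did not overlap, by a narrow gap, since the lowest wild-type library had 72.2 CPM and the highest *ime4∆* library 70.5 CPM. SSP1 had 1, 1 and 0 counts in wild type and 1, 0 and 1 in *ime4∆*, all under the limit of 3 counts.

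SPR3 (YGR059W, chromosome VII) and SPR28 (YDR218C, chromosome IV) encode septins made only in sporulation, which assemble along the growing prospore membrane. The SPR3 counts were 84, 55 and 94 in wild type and 44, 54 and 102 in *ime4∆*, which gave 290 ± 41.1 and 255 ± 52.6 CPM (SD, n = 3 each) with overlapping libraries. The SPR28 counts were 138, 62 and 123 in wild type and 124, 93 and 157 in *ime4∆*. SPR28 stood at 387 ± 35.6 CPM in wild type and 492 ± 52.9 CPM in *ime4∆* (SD, n = 3 each), and all 3 *ime4∆* libraries were above all 3 wild-type libraries.

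GAS4 (YOL132W, chromosome XV) encodes a glucan-remodelling enzyme of the spore wall, and DIT1 (YDR403W, chromosome IV) an enzyme that makes the precursor of dityrosine, the cross-linked outer layer of the wall. GAS4 had 31, 18 and 42 counts in wild type and 20, 11 and 20 in *ime4∆*, or 111 ± 27.7 and 67.4 ± 18.0 CPM (SD, n = 3 each). The lowest wild-type library had 89.5 CPM and the highest *ime4∆* library 88.2 CPM, so the strains again separated by little. DIT1 had 62, 36 and 47 counts in wild type and 28, 30 and 47 in *ime4∆*, or 180 ± 21.4 and 138 ± 17.8 CPM (SD, n = 3 each), also without overlap, with 159 CPM in the lowest wild-type library and 158 CPM in the highest *ime4∆* library. SPS4 (YOR313C, chromosome XV), a gene first found as transcribed in sporulation, had 7, 5 and 9 counts in wild type and 10, 16 and 18 in *ime4∆*, or 26.2 ± 5.36 and 59.6 ± 21.4 CPM (SD, n = 3 each), with every *ime4∆* library above every wild-type library.

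**Figure D2:**
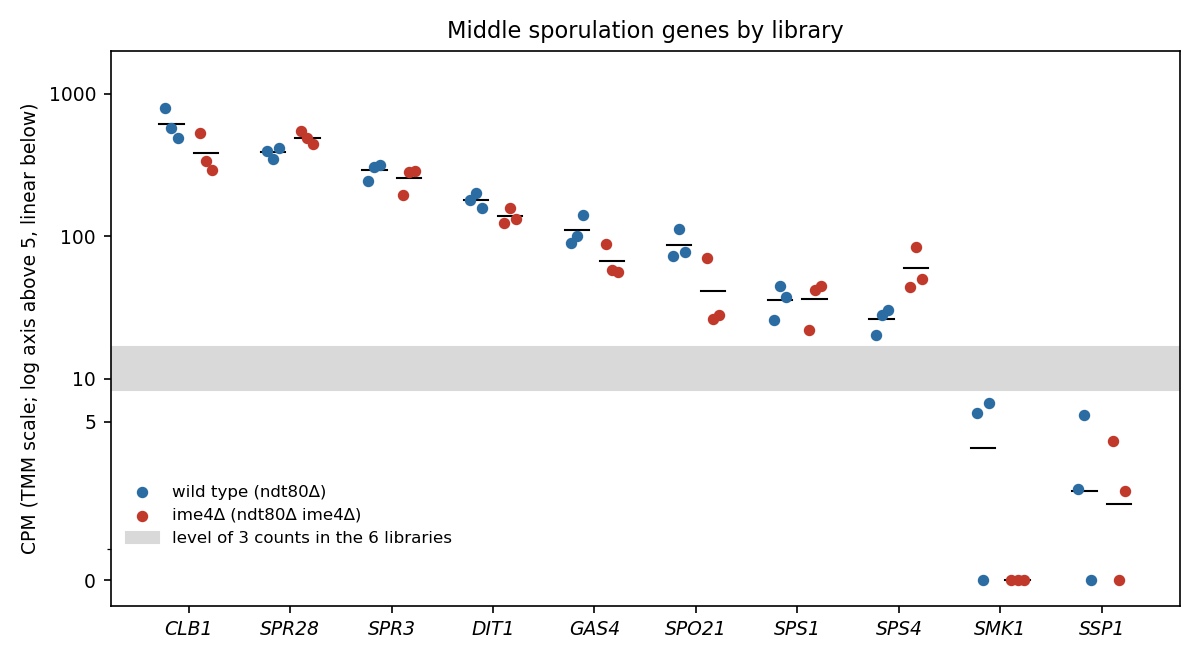
Level of each of the 10 genes in each library, in CPM on an axis that is logarithmic above 5 and linear below. Points are libraries, bars are strain means, blue is wild type and red is *ime4∆*; CLB1, SPR28 and SPR3 are at 194 CPM or more in all 6 libraries, while SMK1 and SSP1 lie under the grey band that marks the level of 3 counts.

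Per kb of coding length, the order of the levels in wild type was CLB1 (436 ± 111 CPM per kb), SPR28 (305 ± 28.0), SPR3 (188 ± 26.7), DIT1 (112 ± 13.3), GAS4 (78.3 ± 19.6), SPO21 (47.8 ± 11.8), SPS4 (25.8 ± 5.27), SPS1 (24.5 ± 6.45), SMK1 (3.58 ± 3.13) and SSP1 (1.65 ± 1.63). Within wild type, the libraries of neighbours in this order overlapped for DIT1 and GAS4, for SPS4 and SPS1 and for SMK1 and SSP1. In *ime4∆* the order began with SPR28 (387 ± 41.6 CPM per kb) and CLB1 (272 ± 89.0), which overlapped, and SPS4 (58.6 ± 21.1) came before GAS4 (47.6 ± 12.7), SPS1 (24.7 ± 8.46) and SPO21 (22.8 ± 13.7). Libraries of neighbours in the *ime4∆* order also overlapped for DIT1 and SPS4, for SPS4 and GAS4, for SPS1 and SPO21 and for SSP1 and SMK1. Without division by length, SPS1 (36.0 CPM) stood above SPS4 (26.2 CPM) in wild type. In *ime4∆* GAS4 (67.4 CPM) then stood above SPS4 (59.6 CPM), and SPO21 (41.6 CPM) above SPS1 (36.3 CPM). Whether counts of direct RNA reads should be divided by length was not tested. CLB1, SPR28 and SPR3 together held 74.2% ± 3.68 of the summed CPM of the 10 genes in wild type and 76.6% ± 1.59 in *ime4∆* (SD, n = 3 each).

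Set against all 7071 features by percentile, in which 100 is the most abundant feature, the 10 genes had a median of 70.2 in wild type and 61.9 in *ime4∆* (medians of the strain means). The lowest and highest medians of single libraries were 67.3 and 71.7 in wild type and 59.7 and 65.7 in *ime4∆*. CLB1 stood at 95.1 in wild type and 91.3 in *ime4∆*, SPR28 at 91.7 and 94.5, and SPR3 at 88.2 and 85.9. DIT1 stood at 80.8 and 75.0, GAS4 at 72.1 and 62.8, SPO21 at 68.3 and 55.7, SPS1 at 55.1 and 54.7, and SPS4 at 51.5 and 61.0. SMK1 at 31.8 and 15.8 and SSP1 at 28.6 and 28.5 were below the middle of all features. In wild type 8 of the 10 genes thus stood above the middle of all features.

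Part of this standing went with length. Among the 2266 coding features of 1000 to 2000 bases, a comparison chosen after the data were seen, the median percentile was 63.5 in wild type and 52.4 in *ime4∆*, and SPS1 (43.8 and 43.4) fell below the middle in both strains, SPS4 in wild type (39.3) and SPO21 in *ime4∆* (45.0). After division by coding length it was 63.6 and 58.8. The median CPM of the 10 genes was 99.1 ± 15.9 in wild type and 67.9 ± 13.3 in *ime4∆*, against 50.1 ± 0.896 and 55.6 ± 2.48 for the length class and 23.1 ± 0.630 and 21.8 ± 0.753 for all features (SD, n = 3 each). The 10 genes together took 0.168% ± 0.00189 of the counts in wild type and 0.153% ± 0.0121 in *ime4∆* (SD, n = 3 each).

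The 25 early meiotic genes, which are induced before Ndt80 acts, had a median percentile of 75.0 in wild type and 71.2 in *ime4∆*. The 39 genes of the wider middle list had 57.1 and 56.0. In each of the 6 libraries the median of the 10 genes among all features lay between those of the other 2 lists, above the wider middle list (54.7 to 58.1) and below the early list (70.2 to 76.5). In the class of 1000 to 2000 bases the 10 genes had 63.5 in wild type and 52.4 in *ime4∆*. There 24 genes of the wider list had 61.0 and 50.9, and 7 early genes had 75.2 and 67.8. Over all libraries, the wider list (57.4) stood above the 10 genes (56.3) in this class. The place of the 10 genes above the wider list thus depended on the features compared. The genes in each list were chosen by name with earlier results of these data known, so these orders are a description of the lists.

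**Figure D3:**
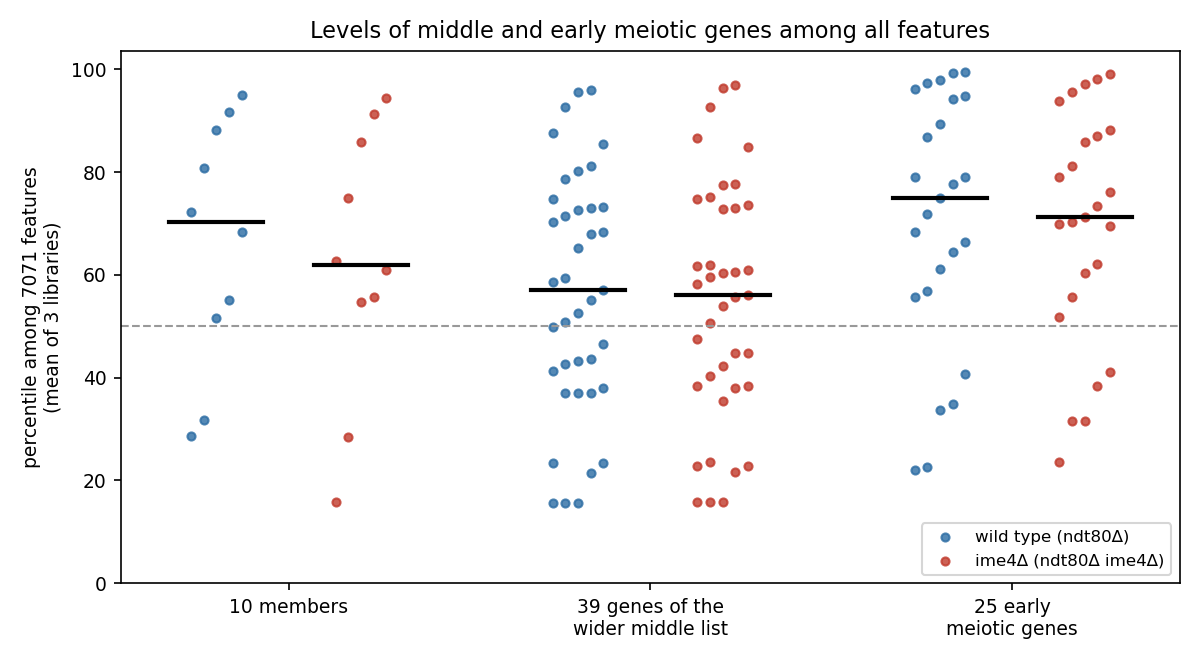
Percentile of each gene among 7071 features, as the mean of 3 libraries, for the 10 genes, the 39 genes of the wider middle list and the 25 early meiotic genes. Blue is wild type, red is *ime4∆*, black bars are medians (70.2 and 61.9 for the 10 genes) and the dashed line is the middle of all features.

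The comparison of *ime4∆* with wild type asks whether these genes differ with the loss of the methyltransferase when both strains lack Ndt80. With edgeR's quasi-likelihood test and Benjamini-Hochberg adjustment over the 3231 features tested, CLB1 was lower in *ime4∆* (log2 fold change -0.70, SE 0.22, adjusted p = 0.0303) and SPS4 was higher (1.15, SE 0.39, adjusted p = 0.0402). These were 2 of the 8 genes tested, and 24.3% of all features tested passed the same threshold, 12.3% as higher and 11.9% as lower, so the share among the 8 genes was close to that background. Libraries of the strains did not overlap in CPM for 5 of the 8 genes, SPO21, GAS4 and DIT1 lower in *ime4∆* and SPR28 and SPS4 higher, against 38.8% of all features tested. For each of these 5 the exact permutation test gave p = 0.1, the smallest value that 3 against 3 libraries allow. The median log2 fold change of the 8 genes was -0.27, against 0.02 for all features tested. In bulk RNA, fewer cells that express a gene and less RNA per cell cannot be told apart.

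For the 6 genes that did not pass the threshold, the estimates and their errors were as follows. SPO21 had a log2 fold change of -1.05 (SE 0.38, adjusted p = 0.0552 in edgeR's test) and GAS4 one of -0.73 (SE 0.30, adjusted p = 0.0835), both near the threshold. DIT1 had -0.38 (SE 0.20, adjusted p = 0.198) and SPR28 had 0.33 (SE 0.15, adjusted p = 0.128). SPR3 (-0.16, SE 0.19) and SPS1 (0.11, SE 0.39) had estimates smaller than their errors, with adjusted p = 0.580 and 0.870 in edgeR's test. For SPS1 the error leaves room for a sizeable difference in either direction.

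Both calls were lost when any 1 of several libraries was left out, while the estimates of CLB1 and SPS4 kept their sign. Over all features, 558 to 782 were called with 1 library left out, against 784 with all libraries. Without wild-type replicate 1, which held the highest CLB1 level, the CLB1 change was -0.47 with an adjusted p of 0.147 in edgeR's test. The CLB1 call was also lost without wild-type replicate 2 (0.0647), without *ime4∆* replicate 2 (0.117) and without *ime4∆* replicate 3 (0.185), and it held without the other 2 libraries. The SPS4 call was lost without wild-type replicate 1 (0.168), 2 (0.0855) or 3 (0.0603) and without *ime4∆* replicate 2 (0.157), held without *ime4∆* replicate 1, and without *ime4∆* replicate 3 SPS4 did not reach the filter on low counts. Without *ime4∆* replicate 1, SPO21 (0.00814) and GAS4 (0.0446) passed as well, and 4 of the 8 genes were called, against 782 of the 3453 features tested in that setting. DESeq2 called neither CLB1 (adjusted p = 0.0616) nor SPS4 (0.202).

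**Figure D4:**
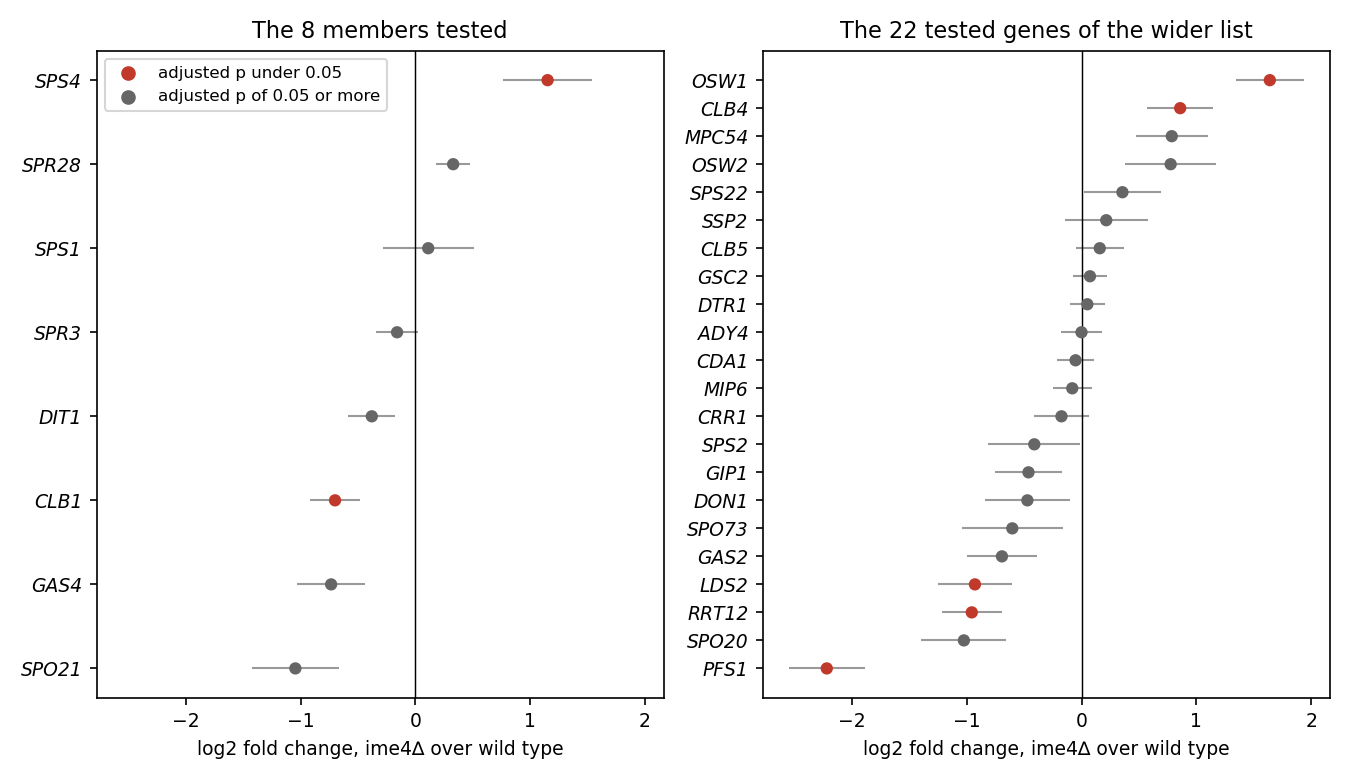
Difference of *ime4∆* from wild type as log2 fold change, with its standard error, from edgeR's fit over all features, for the 8 tested genes on the left and for the 22 tested genes of the wider middle list on the right. Red marks an adjusted p under 0.05, which CLB1 and SPS4 reached on the left and PFS1, RRT12, LDS2, CLB4 and OSW1 on the right.

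The summed level of the 10 genes was 1828, 1722 and 1675 CPM in the wild-type libraries and 1623, 1476 and 1335 CPM in *ime4∆*, which is 1742 ± 78.2 and 1478 ± 144 (SD, n = 3 each), without overlap. The most abundant genes weighed on these sums in opposite ways, as seen when CLB1 or SPR28 was left out, a choice made after the data were seen. Without CLB1 the sums were 1037, 1150 and 1188 CPM in wild type and 1093, 1140 and 1042 in *ime4∆*, or 1125 ± 78.7 and 1092 ± 48.8 (SD, n = 3 each), and the strains overlapped. Without SPR28 they were 1429, 1374 and 1259 CPM in wild type and 1076, 988 and 893 in *ime4∆*, or 1354 ± 86.9 and 986 ± 91.2 (SD, n = 3 each), and the strains did not overlap.

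Some early genes also differed between the strains. Of the 25 early meiotic genes 19 were tested, of which 8 were lower and 2 higher in *ime4∆*, against 11.9% lower and 12.3% higher of all features tested. The summed level of the 25 was 9565 to 10869 CPM in wild type and 5996 to 7072 CPM in *ime4∆*. The 6 markers of meiotic prophase, all of which are also on the early list, were all tested, 4 of them were lower (SPO11, REC8, HOP1 and ZIP1), and none was at 0. DMC1 (log2 fold change -0.40, SE 0.23, adjusted p = 0.235 in edgeR's test) and IME2 (0.63, SE 0.32, adjusted p = 0.178) were not called. IME2 had the only estimate above 0. The sum of the 6 was 5496 to 6276 CPM in wild type and 2992 to 3563 CPM in *ime4∆*. ZIP1 (2458 CPM in wild type and 1005 in *ime4∆*) and REC8 (2359 and 1664) weighed most in it, and no sum without them was computed. ZIP1, which builds the central element of the synaptonemal complex, had 964, 442 and 624 counts in wild type and 254, 209 and 284 in *ime4∆*, and REC8, the meiotic cohesin, had 722, 469 and 698 and then 409, 292 and 589. Of the 2 markers of late sporulation, DIT2 was low, with 2, 0 and 0 counts in wild type and 0 in all 3 *ime4∆* libraries. SPS100, with 5, 2 and 7 and then 4, 4 and 14 counts, stood near the middle of all features (percentiles of 46.7 in wild type and 51.0 in *ime4∆*). The sums of the 2 markers were 11.2 to 23.7 CPM in wild type and 17.6 to 39.3 CPM in *ime4∆*. The 8 markers of haploid cells are genes that should be off in diploids with both mating types. Of them, 5 were tested, 1 was lower (STE2) and none was at 0 in every library. Their sums overlapped (1800 to 2010 CPM in wild type and 1655 to 1854 CPM in *ime4∆*). STE2 (percentiles of 95.6 in wild type and 88.1 in *ime4∆*), GPA1 (91.5 and 90.4) and FAR1 (96.2 and 98.0) stood high among all features. The median percentile of the 8 was 61.2 in both strains. The part of these markers in the values of the 10 genes was not tested.

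The 39 genes of the wider middle list divide into 14 of the prospore membrane and its leading edge, 16 of the spore wall, 5 of the cell cycle and 4 others. Of the 39, 22 were tested, 2 were higher and 3 were lower in *ime4∆*, a share near the 24.3% called over all features tested, and the median log2 fold change was -0.07, against 0.02 for all features. In the spore wall group 11 genes were tested, with OSW1, needed for the outer wall, higher and the lipid droplet protein gene LDS2 and the protease-related RRT12 lower. In the prospore membrane group 8 genes were tested and 1, PFS1, named for the choice of the spindle poles at which prospore membranes form, was lower. In the cell cycle group 2 genes were tested and 1, the B-type cyclin gene CLB4, was higher, in the opposite direction to CLB1. The 1 tested gene of the last group, MIP6, was not called.

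PFS1 had 64, 28 and 40 counts in wild type and 4, 11 and 11 in *ime4∆* (log2 fold change -2.22, SE 0.33, adjusted p = 0.000253 in edgeR's test). OSW1 had 11, 8 and 14 counts in wild type and 24, 22 and 54 in *ime4∆* (1.64, SE 0.30, adjusted p = 0.00106). The PFS1 and OSW1 libraries did not overlap, and both calls held in each of the alternatives in which they were tested. RRT12 had 41, 20 and 34 counts and then 11, 12 and 23 (-0.96, SE 0.26, adjusted p = 0.0144), again without overlap in CPM. LDS2 had 44, 18 and 26 and then 11, 17 and 14 (-0.93, SE 0.32, adjusted p = 0.0487), with overlap, and it lost its call without wild-type replicate 1 (0.182) or 2 (0.0912) and without *ime4∆* replicate 1 (0.102) or 3 (0.252). CLB4 had 20, 18 and 19 and then 22, 31 and 46 (0.86, SE 0.29, adjusted p = 0.0412), with overlap, and it lost its call without wild-type replicate 1 (0.145) or 3 (0.102) and without *ime4∆* replicate 2 (0.144) or 3 (0.122). With DESeq2, RRT12 (adjusted p = 0.106), LDS2 (0.198) and CLB4 (0.171) all lost their calls.

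The genes of the wider list with a mean CPM above the median of all features (24.3 CPM) that were not called spanned a wide range of levels. The spore wall genes GSC2, a glucan synthase subunit, with 687 ± 31.3 CPM in wild type and 720 ± 87.0 in *ime4∆* (SD, n = 3 each), and DTR1, the dityrosine transporter, with 646 ± 77.9 and 667 ± 69.3, were the highest of the list. MIP6, an RNA-binding protein gene, followed with 439 ± 86.2 and 414 ± 55.8, then the chitin deacetylase gene CDA1 with 275 ± 23.2 and 260 ± 26.5, and ADY4, a partner of Spo21 in the outer plaque, with 239 ± 41.1 and 234 ± 7.80. The log2 fold changes of these 5 lay between -0.08 and 0.07. MPC54, another outer plaque gene, had 98.5 ± 18.7 CPM in wild type and 175 ± 92.3 in *ime4∆* (0.79, SE 0.31, adjusted p = 0.0813 in edgeR's test), and SPO20, a SNARE of the prospore membrane, had 121 ± 48.0 and 64.0 ± 26.2 (-1.03, SE 0.37, adjusted p = 0.0560). The partner of GAS4, GAS2, had a log2 fold change of -0.69 (SE 0.31, adjusted p = 0.114 in edgeR's test), close to the -0.73 of GAS4. SPS2, SPS22, CRR1, OSW2, GIP1, SSP2, SPO73, DON1 and CLB5 had adjusted p values of 0.177 to 0.712, and SMA2 was above the median but did not pass the filter. SPO71 and SMA1 had 0 counts in every library.

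How far the names can be trusted was described on the chromosome arms that hold the 10 genes and in the features named around each gene. The ribosomal protein genes had a median percentile of 51.5 on the right arm of chromosome IV (9 genes), 67.2 on the right arm of VII (6 genes), 49.2 on the right arm of VIII (5 genes), 70.5 on the left arm of XV (5 genes), 47.7 on the right arm of XV (8 genes) and 62.3 on the right arm of XVI (3 genes). The highest single value on these arms was 91.1, on the left arm of XV. On none of these arms did the ribosomal protein genes sit at the top of the features, and whether the counts of the 10 genes belong to the 10 genes was not tested. The limits of length and medium named above apply to this check too.

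Of the 3 features named on each side, none had a higher mean CPM than CLB1, SPR28 or DIT1, and 1 was higher than SPR3. For GAS4, SPS1 and SPS4 2 of the 6 were higher, for SMK1 and SPO21 3, and for SSP1 4. The nearest features around DIT1 were DIT2, which acts next to Dit1 in dityrosine synthesis, with 2, 0 and 0 counts in wild type and 0 in *ime4∆*, and RPB7, a subunit of RNA polymerase II, with 1, 1 and 1 and then 2, 1 and 1. DIT1 and DIT2, neighbours that are known to be induced together, thus differed in level by far more than their replicates did. The same held for CLB1 beside the S-phase cyclin gene CLB6, with 3, 1 and 1 counts in wild type and 5, 0 and 6 in *ime4∆*, and the feature YGR107W on its other side had 8, 10 and 10 and then 8, 4 and 7.

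SPS1 showed the opposite arrangement on 1 side, lying beside SPS2, a spore wall gene, which had 85, 22 and 59 counts in wild type and 69, 14 and 28 in *ime4∆*. AGE1, on the other side, had 9, 6 and 8 and then 7, 5 and 8, a mean of 27.7 CPM against 36.2 CPM for SPS1. SSP1, near 0, lay beside PFS1, whose counts are given above. GAS4 lay between YOL131W, with 1, 0 and 0 counts in wild type and 0 in *ime4∆*, and HRT1, with 0, 0 and 1 and then 1, 0 and 0. SPO21 lay beside YPQ1, with 14, 8 and 14 counts in wild type and 17, 15 and 23 in *ime4∆*, which was not called.

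SPR28 lay between the checkpoint gene RAD9, which was lower in *ime4∆* (55, 11 and 28 counts and then 6, 10 and 21, log2 fold change -1.22, adjusted p = 0.0260 in edgeR's test), and MFB1, with 2, 0 and 0 and then 1, 1 and 3. SPR3 lay between PEF1, with 2, 1 and 1 counts in wild type and 0, 1 and 0 in *ime4∆*, and the sterol gene ERG25, with 36, 11 and 20 and then 6, 11 and 19 (-0.79, adjusted p = 0.114). SPS4 lay between the ribosomal protein gene RPL20B, with 7, 2 and 3 counts in wild type and 2, 3 and 8 in *ime4∆*, and YOR314W, with 0 in wild type and 0, 2 and 0 in *ime4∆*. RPL20B, which growing cells transcribe strongly, had more counts than SPS4 in none of the 6 libraries, but these cells were harvested in SPO and not in growth medium.

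**Figure D5:**
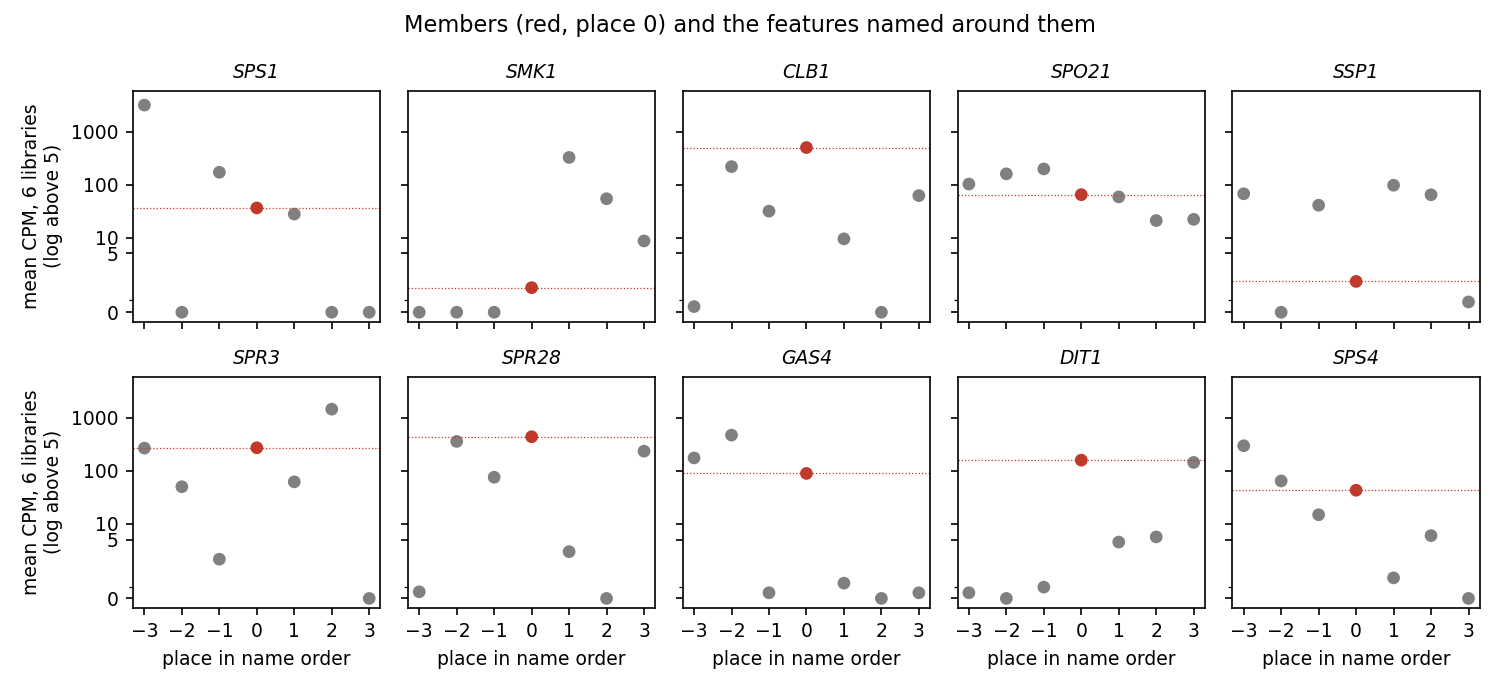
Mean CPM over 6 libraries, on an axis logarithmic above 5, of each of the 10 genes (red, place 0) and of the 3 features named on each side of it. CLB1, SPR28 and DIT1 stand above all 6 of their neighbours, and SSP1 stands below 4 of its 6.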

How the data were processed

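Counts of reads per annotated feature were deposited by the authors, one file per library, without normalization and without pooling of replicates. Per the paper's methods and the submitters' processing notes, reads were base-called with Albacore, filtered with NanoFilt, mapped with minimap2 and counted with HTSeq. The yeast genome build, the annotation and the strand setting of the counting are not given in the sources used here. Of the reads in the count lines of a library, between 72.1% and 75.4% were on a feature. Those given to no feature, to several or with a low mapping quality were left out. Base-called reads that did not map are not part of these shares.

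Strains were compared with edgeR 4.0.16 in R 4.3.3 (TMM factors, filterByExpr, quasi-likelihood test, Benjamini-Hochberg adjustment over 3231 features, threshold 0.05), after the script was tested on simulated data. CPM are counts divided by library size times TMM factor, and percentiles use mid-ranks among 7071 features. Exact permutation tests (scipy 1.17.1) were two-sided, and 0.1 is the smallest p they allow. Depth was 177675 to 372270 counts per library, and floors of 3 counts cover counting error only. Names were matched to the RefSeq annotation of R64 (6006 of 7071 found). Promoter sequences come from that assembly, not from SK1. Figures were drawn with matplotlib 3.10.9.

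Alternatives were DESeq2 1.42.0, RLE factors, library size alone, no filter, 10 counts in every library, downsampling, a replicate block, each library left out, and for levels and elements CPM per kb, features with a count and other forms of the element. The length class and the sums without CLB1 or SPR28 were added after seeing the data. The text names the 10 genes, the deleted genes, genes of the wider list that were called or above the median CPM of all features, and the nearest listed feature on each side of a gene that passed the filter. Marker genes are named where they belong to meiotic prophase or late sporulation, were called or stood high among all features. Of the abundant list, the lowest and the highest gene are named. One feature that this rule names is not reported here. The 10 genes and all lists were chosen with earlier results of these data known. The wider and early lists are described by counts and medians only.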

Additional observations from a re-analysis of the deposited data

How the results depend on the processing

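Of the 8 genes tested, 2 were called in the test reported above. DESeq2 called 0 (3 at an unadjusted p under 0.05), against 5 at an unadjusted p under 0.05 in edgeR's test, and a minimum of 10 counts in every library called 1 of the 5 genes left. Leaving out each library in turn gave 0 to 4 calls. Over all features the count was 784, and 457 with DESeq2. Scaling by library size alone called 795 features, 495 higher and 300 lower, in place of 399 higher and 385 lower, and there SPR28 also passed (adjusted p = 0.0446). Without a filter SPO21 passed too (0.0194), and after downsampling (0.0331). The wider list had 5 calls, 2 with DESeq2 and 3 to 6 without single libraries. The estimates for CLB1 lay between -0.998 and -0.466, with adjusted p from 2.59e-05 to 0.185, and those for SPS4 between 0.90 and 1.30, with adjusted p from 0.0220 to 0.202. The median percentile of 70.2 in wild type became 63.6 per kb, 63.1 among features with a count and 63.5 in the length class, and that of 61.9 in *ime4∆* became 58.8, 52.8 and 52.4. The summed level without CLB1 was 1125 CPM in wild type and 1092 in *ime4∆*, and without SPR28 it was 1354 and 986. The percentile shifts follow from the other set or scale of features. For the other changes, the cause was not tested. The estimate for SPS1, which was not called, changed sign without wild-type replicate 1, and with single libraries left out it lay between -0.11 and 0.34 (without *ime4∆* replicate 3 it did not pass the filter). Replicate numbers are shared by the strains, but same-numbered libraries deviated together with r = 0.251, 0.0824 and 0.188, 1 of them under 0.1, so the numbers were not taken as pairs, although all 6 libraries correlated best with their own number, a hint from the data. With a replicate block 4 of the 8 genes were called (CLB1, GAS4, SPO21 and SPS4), against 1027 of the 3231 features tested. SMK1, SSP1, SPS1 and SPS4 are limited by depth, and SPS4 had fewer counts summed over wild type (21) than SPS1 (28).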
